A study of Mus musculus with 15 samples.

Results

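Transcripts of 10 lysosomal genes were followed in mouse cerebellum by RNA sequencing: the cathepsin genes Ctsa, Ctsb, Ctsd, Ctsh, Ctsl, Ctss and Ctsz, the lysosomal membrane genes Lamp1 and Lamp2, and Hexa, which encodes the alpha subunit of the glycosidase beta-hexosaminidase. They were chosen by gene symbol and make up 10 of the 24421 genes in the count tables. All 10 had enough counts to be tested, as had 15843 genes in all. Counts of these genes in a library ran from 236 (Ctsh) to 31605 (Ctsb).

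The libraries came from FVB mice of 3 genotypes, 5 libraries each: FVB without a transgene, called wild type here, Pcp2-ATXN1[82Q] and Pcp2-ATXN1[82Q]V591A;S602D. Both transgenes encode human ATXN1 with an expanded glutamine tract, the lesion of spinocerebellar ataxia type 1. They are under control of Pcp2, a gene of Purkinje cells, which carry the output of the cerebellar cortex. The V591A;S602D transgene has in addition a pair of amino acid substitutions that are known to weaken binding of ATXN1 to the transcriptional repressor CIC, and comparing the transgenes asks what depends on that binding. No age was given. Nothing in the labels ties each library to its own animal, and the p-values then reflect only library-to-library spread, which may be technical in part. Mouse gene counts give no level for the human transgenes, so an effect of the substitutions cannot be told apart from a difference in transgene level. Counts on genes ran from 36467948 to 42818401 per library.

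Lysosomes are the acidic organelles in which cells digest proteins, lipids and sugars. Cathepsins are their proteases: B, H, L, S and Z use a cysteine in the active site, D an aspartate and A a serine. LAMP1 and LAMP2 are heavily glycosylated proteins that cover the inner face of the lysosomal membrane, and LAMP2 also serves fusion with autophagosomes and chaperone-mediated autophagy. Every cell has lysosomes, but in brain cathepsin S is made mostly by microglia, the resident phagocytes. Many lysosomal genes carry a palindromic element named CLEAR, to which the factors TFEB and TFE3 bind, while PU.1 is a factor of the myeloid lineage.

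Promoter sequence from RefSeq (GRCm38.p6, 250 bases before to 50 after a start) was matched for 8 of the 10 genes, with 9 starts, since Ctsa has 2. Both strands were searched for the E-box CACGTG, for TCACGTGA, the core of CLEAR, which contains the E-box, and for GAGGAAGT, a PU.1 element. The windows below are shown because they hold a match, in capitals, and because their genes range from the largest rise to no detected change between genotypes. Ctss, plus strand, chr3:95526536-95526791, has the PU.1 element on the opposite strand, 2 bases before the start. Lamp1, plus strand, chr8:13158911-13159160, has 4 E-boxes. Of Ctsa, Ctsd and Ctsl 30 bases around the matches are given, since their windows hold over 30 bases of annotated untranslated region. The Ctsa site, chr2:164833758-164833787 on the plus strand, spans the second start and holds the CLEAR core on each side of it. The Ctsd sites on the minus strand, chr7:142388048-142388077 and chr7:142387908-142387937, hold an E-box and a CLEAR core. The Ctsl site on the minus strand, chr13:64370739-64370768, holds an E-box. In the GENCODE annotation the Ctsa site, the second Ctsd site and the Ctsl site lie within the gene, which begins before the RefSeq start used.
Ctss: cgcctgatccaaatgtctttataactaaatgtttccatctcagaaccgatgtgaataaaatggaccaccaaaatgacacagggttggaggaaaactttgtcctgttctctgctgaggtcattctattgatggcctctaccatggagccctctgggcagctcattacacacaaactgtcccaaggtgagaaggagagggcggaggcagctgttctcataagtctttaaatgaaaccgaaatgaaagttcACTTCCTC
Lamp1: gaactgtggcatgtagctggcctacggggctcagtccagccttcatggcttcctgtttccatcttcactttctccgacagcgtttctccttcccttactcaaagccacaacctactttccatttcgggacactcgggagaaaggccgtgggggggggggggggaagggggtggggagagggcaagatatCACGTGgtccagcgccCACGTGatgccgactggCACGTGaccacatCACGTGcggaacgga
Ctsa: tgTCACGTGAtgcagatgcTCACGTGAcca
Ctsd, first site: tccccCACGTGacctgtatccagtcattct
Ctsd, second site: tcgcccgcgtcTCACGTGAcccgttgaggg
Ctsl: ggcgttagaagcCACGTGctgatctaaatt

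The E-box was found in windows of 4 of the 8 genes (Ctsa, Ctsd, Ctsl and Lamp1) and in 7.15% of all 32851 RefSeq windows of this length. The CLEAR core was found in Ctsa and Ctsd and in 0.974% of all windows, and the PU.1 element in Ctss and in 3.2% of all windows. None of the 3 motifs was found in the windows of Ctsz, Hexa and Lamp2 or at the first start of Ctsa. A match describes the letters only. Genes with the E-box included both genes that rose in ATXN1[82Q] (Ctsa, Ctsd) and genes with no detected change (Ctsl, Lamp1).

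**Figure D1:**
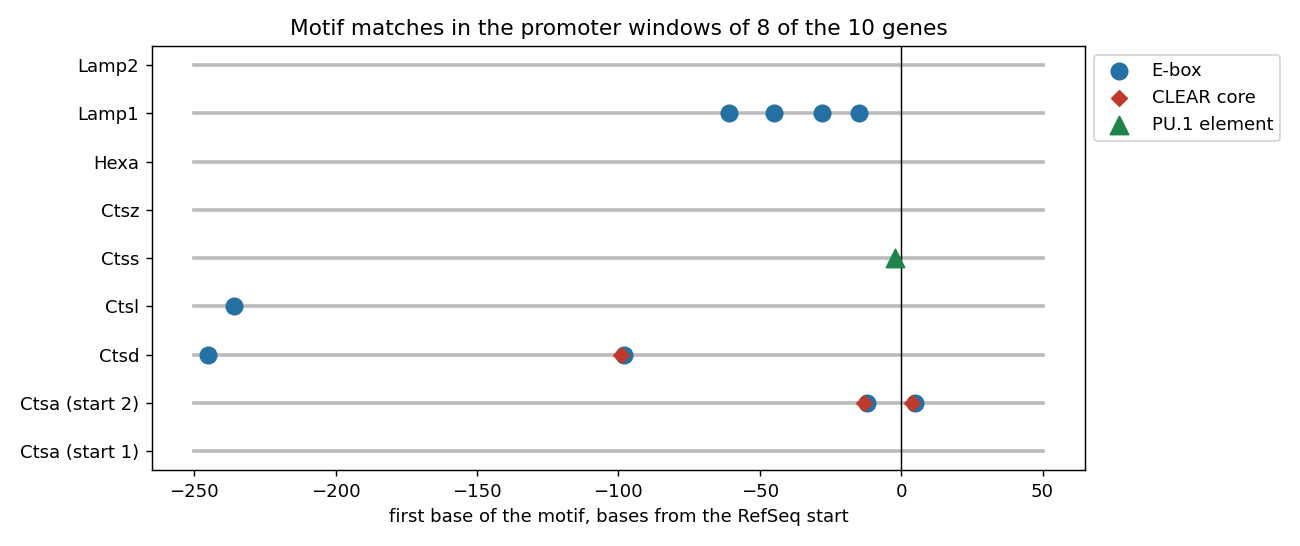
Positions of motif matches in the 9 RefSeq windows of 8 genes, in bases from the start (vertical line), with the window as a grey bar. Lamp1 has 4 E-boxes before its start, the 2 CLEAR cores of Ctsa lie on both sides of its second start, and the PU.1 element of Ctss begins 2 bases before the start.

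Levels differed by a wide range between the genes. Per kb of the principal GENCODE transcript, wild-type levels in CPM (counts scaled to a common library size, with TMM factors) were highest for Lamp1 (214 CPM per kb), Ctsd (158) and Ctsb (141). They were lower for Ctsa (31.4), Lamp2 (30.3), Hexa (23.1), Ctsz (22.6), Ctss (22.4) and Ctsl (19), and lowest for Ctsh (4.22). Neighbours in this order whose ranges over the 5 libraries overlapped were Ctsd and Ctsb, Ctsa and Lamp2, Hexa, Ctsz and Ctss, and Ctss and Ctsl. In ATXN1[82Q] Ctss moved from the 8th to the 4th place, at 44.1 CPM per kb, with all libraries (41.9 to 46.1) above those of Ctsa (34.8 to 39). The place of Lamp2 depends on the length used: over all annotated exons it was the 9th in each genotype.

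In ATXN1[82Q] cerebella 7 of the 10 transcripts rose against wild type and none fell (edgeR quasi-likelihood test, Benjamini-Hochberg adjusted p under 0.05 over all 15843 genes). Ctss rose most, 1.97-fold, followed by Ctsh, Ctsz and Ctsd, with smaller rises of Hexa, Ctsa and Lamp2. Ctsb and Ctsl, cysteine proteases more abundant per kb than Ctsh, and Lamp1 did not pass. Over all genes 16.6% were called higher and 14.9% lower. The libraries of 6 of the 10 genes lay wholly above wild type, as did those of 9.36% of all genes. The median log2 fold change was 0.25 over the 10 genes and 0.0069 over all genes. In bulk tissue more cells of a type and more RNA per cell cannot be told apart.

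With the V591A;S602D transgene 0 of the 10 passed against wild type, by edgeR and by DESeq2. At an unadjusted p under 0.05 there were 4, with Ctss, Ctsz and Hexa higher and Ctsl lower. In this comparison 0.208% of all genes were called higher and 1.2% lower. One gene, Hexa, had all V591A;S602D libraries above wild type, as had 1.13% of all genes. Between the transgenes, 6 of the 10 were higher in ATXN1[82Q] than in ATXN1[82Q]V591A;S602D and none was lower, the libraries of the same 6 genes not overlapping. Over all genes 13.5% were called higher, 14.6% lower, and 8.28% lay wholly higher. The comparisons share groups, so their values are given side by side and are not independent.

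**Figure D2:**
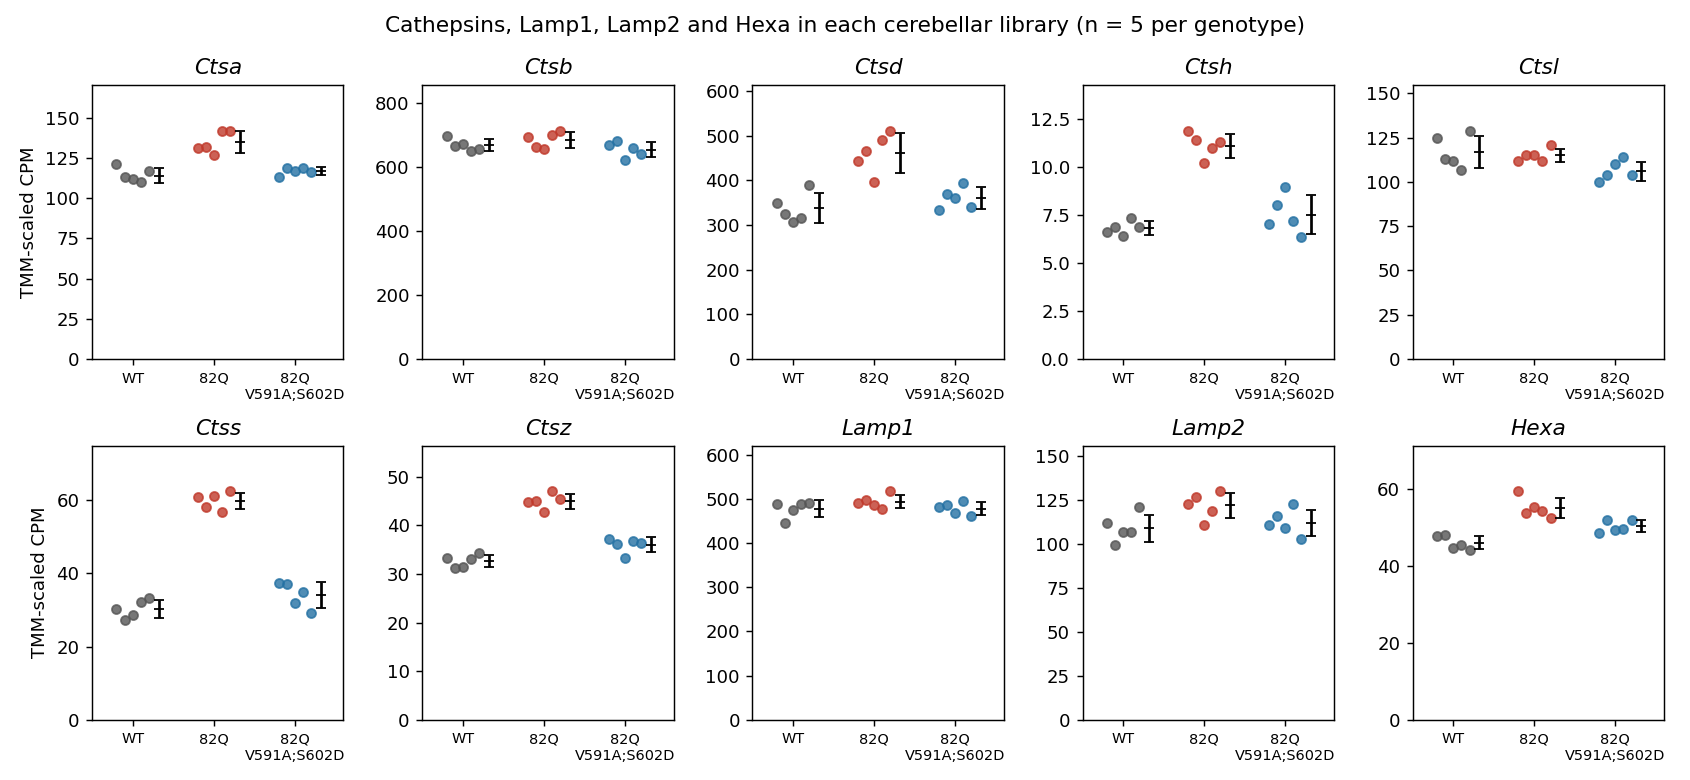
TMM-scaled CPM of each gene in each library (points), by genotype, with the mean and SD of 5 libraries (bars) and axes from 0. The 5 ATXN1[82Q] points lie above all wild-type points for Ctss, Ctsh, Ctsz, Ctsd, Ctsa and Hexa, and overlap them for Ctsb, Ctsl, Lamp1 and Lamp2.

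Among the cysteine cathepsins, Ctss (chr3:95526786-95556403, plus strand, GRCm38), which encodes a protease that stays active at neutral pH and trims the invariant chain of MHC class II, had wild-type levels of 30.3, 27.2, 28.6, 32.2 and 33.3 CPM. In ATXN1[82Q] the libraries stood at 60.8, 58.1, 61, 56.8 and 62.4 CPM. With V591A;S602D they stood at 37.3, 37, 32, 35 and 29.1 CPM. The ATXN1[82Q] libraries were far from both other groups, which overlapped. The log2 fold change of Ctss in ATXN1[82Q] against wild type was 0.98 (SE 0.0672, adjusted p = 1.4e-08). Against V591A;S602D it was 0.81 (95% interval 0.67 to 0.95, adjusted p = 5.3e-07). The difference of V591A;S602D from wild type, 0.17 (0.025 to 0.31), did not pass (adjusted p = 0.331).

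Ctsh (chr9:90054152-90076089, plus strand) encodes an aminopeptidase of the same family and was the least abundant of the genes. Its levels were 6.61, 6.88, 6.39, 7.36 and 6.87 CPM in wild type. They were 11.9, 11.4, 10.2, 11 and 11.3 CPM in ATXN1[82Q], and 7.02, 8.04, 8.95, 7.2 and 6.36 CPM with V591A;S602D. Every ATXN1[82Q] library was above every other library, and the V591A;S602D group had the widest spread of Ctsh (coefficient of variation 13.3% against 5.3% in wild type). Ctsh rose 1.63-fold in ATXN1[82Q] (log2 fold change 0.71, SE 0.0823, adjusted p = 5.58e-06) and was higher than with V591A;S602D by 0.57 (adjusted p = 0.000114). For V591A;S602D against wild type the log2 difference was 0.14 (-0.035 to 0.32, adjusted p = 0.551).

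Ctsz (chr2:174427493-174439039, minus strand), a carboxypeptidase, ran at 33.2, 31.3, 31.4, 33 and 34.3 CPM in wild type. It ran at 44.9, 45.1, 42.7, 47 and 45.4 CPM in ATXN1[82Q] and at 37.3, 36.1, 33.3, 36.7 and 36.4 CPM with V591A;S602D. The V591A;S602D libraries lay between the other groups, 4 of them above all wild-type libraries. Ctsz rose 1.38-fold in ATXN1[82Q] (log2 fold change 0.46, SE 0.0413, adjusted p = 2.66e-07) and was 0.32 higher than with V591A;S602D (adjusted p = 3.81e-05). With V591A;S602D against wild type Ctsz was 0.14 higher (0.052 to 0.23) without passing (adjusted p = 0.134). It passed when V591A;S602D replicate 3, the lowest of its group, was left out (0.17, adjusted p = 0.0487).

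Ctsb and Ctsl are broadly expressed cysteine proteases. Ctsb (chr14:63122462-63145923, plus strand) had wild-type libraries between 648 and 696 CPM, ATXN1[82Q] libraries between 656 and 713 CPM and V591A;S602D libraries between 620 and 682 CPM. The groups overlapped throughout, and the log2 difference of ATXN1[82Q] from wild type was 0.038 with an interval of -0.042 to 0.12 (adjusted p = 0.481). Ctsl (chr13:64359337-64370890, minus strand) had 125, 113, 112, 107 and 129 CPM in wild type. It had 112, 115, 115, 112 and 121 CPM in ATXN1[82Q] and 100, 104, 110, 114 and 104 CPM with V591A;S602D. The lowest Ctsl values were in the V591A;S602D group, which overlapped both others. Its log2 difference was -0.028 (-0.13 to 0.071) for ATXN1[82Q] against wild type (adjusted p = 0.689) and -0.14 (-0.24 to -0.042) for V591A;S602D against wild type (adjusted p = 0.206). With Ttr, a transcript of the choroid plexus, as a covariate the second passed (-0.17, adjusted p = 0.015). Between the transgenes Ctsl was 0.11 higher in ATXN1[82Q] without passing (adjusted p = 0.0802). This difference passed with Ttr as a covariate (adjusted p = 0.0174), with only these 2 genotypes in the fit (adjusted p = 0.0327) and without V591A;S602D replicate 4 (adjusted p = 0.0417). The antisense gene Gm47123 covers 26.8% of the exon length of Ctsl, whose transcripts also hold stretches of up to 191 bases that match transcripts of 29 other genes.

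Ctsd (chr7:142375911-142388038, minus strand) encodes the main aspartic protease of lysosomes, whose loss causes a neuronal ceroid lipofuscinosis. Its wild-type libraries stood at 349.3, 323.9, 306.0, 314.7 and 389.5 CPM. In ATXN1[82Q] it ran at 441.7, 465.8, 395.9, 489.1 and 510.6 CPM, and with V591A;S602D at 333.6, 370.4, 360.7, 392.9 and 340.2 CPM. The lowest ATXN1[82Q] library was just above the highest wild-type library. Ctsd rose 1.37-fold in ATXN1[82Q] (log2 fold change 0.45, SE 0.0725, adjusted p = 0.000157) and stood 0.36 above V591A;S602D (adjusted p = 0.00173). For V591A;S602D against wild type the difference was 0.095 (-0.058 to 0.25, adjusted p = 0.659). Exons of Ctsd overlap those of the annotated gene Gm49369 on the same strand over 34.4% of their length, so how the authors' counting assigned reads there could shift the level. In CPM this was the largest single gain, 124 CPM of the change in the summed cathepsins. The 7 cathepsin transcripts together made up 1305 ± 53.8 CPM in wild type, 1511 ± 74.8 CPM in ATXN1[82Q] and 1314 ± 43 with V591A;S602D (SD, n = 5). Of the sum, Ctsb held 51.1% in wild type against 45.3% in ATXN1[82Q], and Ctsd 25.8% against 30.4%.

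Ctsa (chr2:164832873-164841032, plus strand) encodes a serine carboxypeptidase that also protects beta-galactosidase and neuraminidase in a complex. Its wild-type levels were 121, 113, 112, 110 and 117 CPM. They were 131, 132, 127, 142 and 142 CPM in ATXN1[82Q], and 113, 119, 117, 119 and 116 CPM with V591A;S602D. The ATXN1[82Q] group stood apart from both others. Ctsa rose 1.18-fold (log2 fold change 0.24, SE 0.035, adjusted p = 7.39e-05) and was 0.20 above V591A;S602D (adjusted p = 0.000474), while V591A;S602D against wild type gave 0.031 (-0.043 to 0.11, adjusted p = 0.786). Pltp, on the opposite strand, shares 10.5% of the exon length of Ctsa and rose by 0.20 (adjusted p = 0.0147). Whether counting used strand is not given, so their reads may not be told apart. Opposite-strand genes also share 12.8% of the exon length of Ctsb (Fdft1), 12.8% of that of Hexa (Tmem202) and 9.31% of that of Lamp1 (Grtp1), and these 3 partners did not pass in ATXN1[82Q] against wild type (adjusted p = 0.592, 0.273 and 0.588).

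Hexa (chr9:59539540-59565109, plus strand) encodes the subunit that is lost in Tay-Sachs disease, in which the ganglioside GM2 accumulates. It ran at 47.8, 48, 44.8, 45.5 and 44.2 CPM in wild type. It ran at 59.4, 53.9, 55.4, 54.4 and 52.5 CPM in ATXN1[82Q] and at 48.5, 52, 49.4, 49.5 and 51.9 CPM with V591A;S602D. The 3 groups did not overlap, V591A;S602D lying in the middle. Hexa rose 1.2-fold in ATXN1[82Q] (log2 fold change 0.26, SE 0.0401, adjusted p = 0.000111). With V591A;S602D it was 0.13 above wild type (0.041 to 0.21) without passing (adjusted p = 0.175). ATXN1[82Q] exceeded V591A;S602D by 0.13 (adjusted p = 0.0203), a call that ended without ATXN1[82Q] replicate 1, the highest library (0.10, adjusted p = 0.0646). With fewer libraries in the fit, it also ended among those with Ttr under 100 CPM, where the difference was larger (0.20, adjusted p = 0.0958), and among those over 1000 CPM, where it was smaller (0.081, adjusted p = 0.324).

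The membrane genes moved little. Lamp1 (chr8:13159161-13175338, plus strand) ran at 489, 446, 475, 489 and 490 CPM in wild type, 491, 497, 486, 478 and 517 in ATXN1[82Q], and 481, 486, 468, 496 and 461 with V591A;S602D. The groups overlapped, and the log2 difference of Lamp1 in ATXN1[82Q] from wild type was 0.048 with an interval of -0.03 to 0.13 (adjusted p = 0.346). Lamp2 (chrX:38401357-38456454, minus strand) ran at 112, 99.7, 107, 107 and 121 CPM in wild type, 123, 127, 111, 119 and 130 in ATXN1[82Q], and 111, 116, 109, 123 and 103 with V591A;S602D. Lamp2 rose 1.12-fold in ATXN1[82Q] (log2 fold change 0.16, 95% interval 0.045 to 0.27, adjusted p = 0.0331), with overlapping libraries. Its transcripts hold stretches of up to 146 bases that match transcripts of 35 other genes. This call ended when any 1 of 6 libraries was left out: ATXN1[82Q] replicate 1, 2 or 5, or wild-type replicate 2, 3 or 4 (adjusted p from 0.0626 to 0.0935). It also ended with the mean of brainstem neuron markers as a covariate (0.083, adjusted p = 0.285). Between the transgenes Lamp2 differed by 0.12 without passing (adjusted p = 0.103). That difference passed with Ttr as a covariate (adjusted p = 0.0273) and without V591A;S602D replicate 4 (adjusted p = 0.0394).

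**Figure D3:**
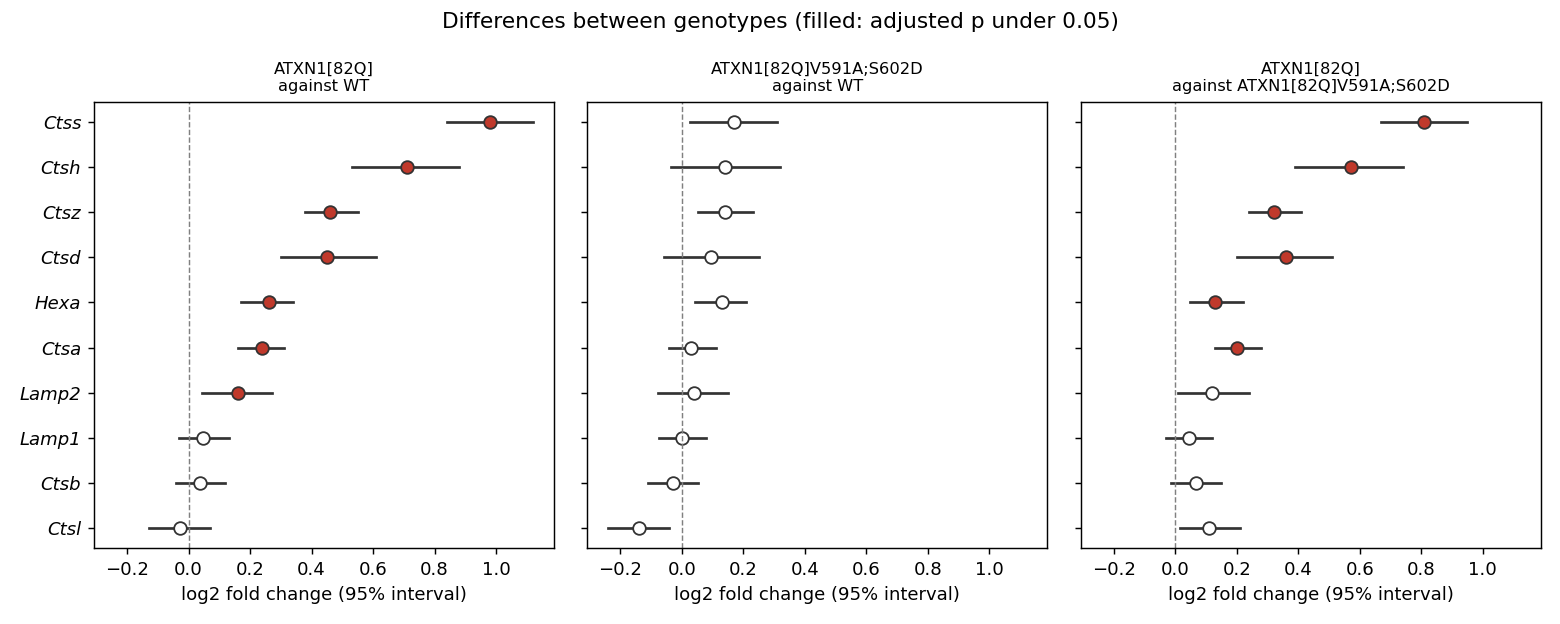
Log2 fold change with its 95% interval (lines) for each gene in the 3 comparisons, with filled points where the adjusted p is under 0.05. Filled points number 7 for ATXN1[82Q] against wild type, 0 for ATXN1[82Q]V591A;S602D against wild type, and 6 for one transgene against the other.

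Markers of other cells moved with these genes. All 15 microglial markers tested, among them Cx3cr1, Csf1r, Trem2 and the C1q genes, were higher in ATXN1[82Q] than in wild type (median log2 fold change 0.83). All were also higher than with V591A;S602D. For V591A;S602D against wild type 0 of 15 passed by edgeR, with 4 higher at an unadjusted p under 0.05. These 4 were C1qa (0.23), C1qb (0.18), C1qc (0.20) and Tyrobp (0.17). The V591A;S602D libraries of C1qa all lay above wild type (adjusted p = 0.0712), as did those of 1.13% of all genes. The summed level of the 15 markers was 174 to 200 CPM in wild type, 312 to 355 in ATXN1[82Q] and 184 to 214 with V591A;S602D. No marker was at 0 throughout a group. Of 6 markers of perivascular macrophages 3 were higher in ATXN1[82Q], among them Mrc1 (4.78 to 9.72 CPM). The 3 not called were Cd163, which was lower (-0.33, adjusted p = 0.0786), Lyve1 (0.23) and Pf4 (0.59). The sum of all 6 was 12.3 to 16.3 CPM in wild type and 19.5 to 25.7 CPM in ATXN1[82Q]. Neutrophil and lymphocyte markers summed to at most 2.46 CPM in any library, with the B cell gene Cd79a higher in ATXN1[82Q] (0.776 to 1.14 CPM, adjusted p = 0.0468). Of 10 oligodendrocyte markers 6 were higher, of 10 Purkinje cell markers all were lower (6 of 10 also with V591A;S602D against wild type), and of 8 granule cell markers 6 were lower. Of 10 markers of astrocytes and Bergmann glia 5 were higher and 3 lower, with the filament gene Gfap going from 136 ± 17.9 to 425 ± 36.1 CPM (log2 fold change 1.64, adjusted p = 1.36e-09), and their sum was 6496 to 6950 CPM in wild type and 6118 to 6399 CPM in ATXN1[82Q]. Of 9 endothelial and mural markers 3 were higher, Vtn (0.57), Pdgfrb (0.41) and Kcnj8 (0.36), and their sum was 258 to 291 CPM in wild type and 318 to 344 CPM in ATXN1[82Q]. Of 8 choroid plexus markers and 2 tested brainstem neuron markers none passed (0 and 1 at an unadjusted p under 0.05). Choroid plexus sums were 19.9 to 4015 CPM in wild type (mean 1064) and 32 to 5142 CPM in ATXN1[82Q] (mean 2421). Brainstem sums over 8 markers were 19.9 to 37.6 CPM (mean 32.3) and 30.5 to 77.3 CPM (mean 49.1). With so wide a spread, the missing calls do not show equal amounts of these tissues. Both cerebellar neuron lists were detected in every library. The part of any of these cells in the cathepsin differences was not tested.

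Ttr, the main transcript of choroid plexus, ran from 4.26 to 4867 CPM over the libraries. Values over 1000 CPM were found in 8 libraries (2 of wild type, 3 of ATXN1[82Q], 3 of V591A;S602D), and the other 7 were under 100 CPM. In each genotype Ctsd was higher in all libraries of the first kind than in all of the second: 349.3 to 389.5 against 306.0 to 323.9 CPM in wild type, 465.8 to 510.6 against 395.9 to 441.7 in ATXN1[82Q], and 360.7 to 392.9 against 333.6 to 340.2 with V591A;S602D. Ctsa separated in the same way (117 to 121 against 110 to 113 CPM in wild type). The rise of Ctsd in ATXN1[82Q] was 0.41 among libraries with Ttr under 100 CPM (adjusted p = 0.00106), 0.39 among those over 1000 CPM (adjusted p = 0.00418) and 0.39 with Ttr as a covariate (adjusted p = 1.51e-06). The rise of Ctsa was 0.21 in each of these fits (adjusted p = 0.00341, 0.012 and 1.06e-05). Ctss, Ctsh, Ctsz and Hexa also passed in each of the 3 fits, with Ctss at 1.05, 0.88 and 0.97. Lamp2 passed with the covariate only (0.12, adjusted p = 0.0274).

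After the genotype means were subtracted, so that only differences between libraries of a genotype remained, the genes followed different measures over the 15 libraries. The correlation with Ttr was highest for Ctsd (Pearson r = 0.89), Ctsa (0.81), Ctsl (0.75) and Lamp2 (0.73), and 0.17 for Ctss. With the mean of the 15 microglial markers it was highest for Ctss (0.67), and 0.20 for Ctsd. Among the genes themselves, Lamp1 and Lamp2 varied together (r = 0.83), as did Ctsa and Ctsd (0.83), while Hexa ran slightly against Ctsd (-0.30). All points come from the same 15 libraries and share their depth and dissection, and the coefficients describe these libraries only.

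**Figure D4:**
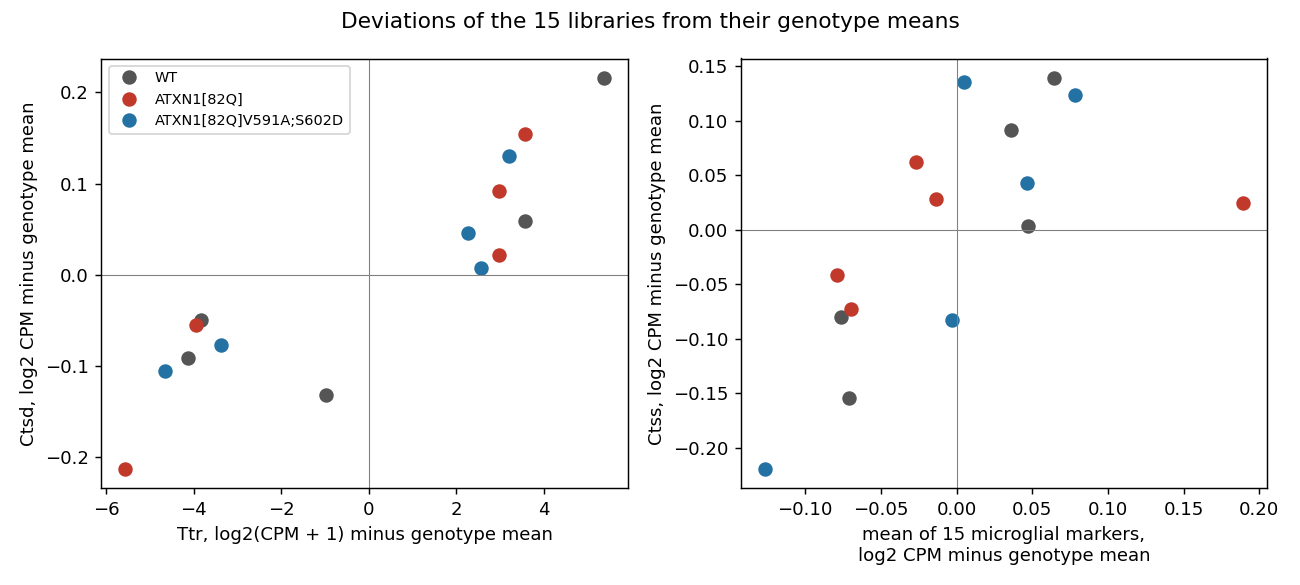
Deviations of the 15 libraries from their genotype means on the log2 scale: Ctsd against Ttr (left, r = 0.89) and Ctss against the mean of 15 microglial markers (right, r = 0.67), with points coloured by genotype. Libraries with high Ttr lie above 0 for Ctsd in each genotype.

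The tested genes whose log2 CPM was most like each of the 10 over the 15 libraries, genotype differences included, fell into several kinds. For Ctss they were Pla2g7 (r = 0.988), Tprkb (0.987) and Mpeg1 (0.986), the last a gene of macrophages. Within genotypes the 3 most like Ctss were Cx3cr1 (0.912), a receptor of microglia, Spata13 (0.904) and S100a13 (0.903). With genotype differences included, Ctsh was most like Csf1r (0.964), Tmem119 (0.953) and Abhd4 (0.952), the first 2 being microglial genes. Within genotypes none of these led, and Ctsh was most like Fadd (0.866), Ier3 (0.837) and Lmcd1 (0.819). Ctsz was most like Itm2c (0.985), the astrocyte filament gene Gfap (0.975) and Padi2 (0.972). Within genotypes these gave way to Sp7 (0.898), Bloc1s5 (0.873) and Tacc3 (0.867). Over the 15 libraries Ctsd was most like Eef1a1 (0.984), Pbxip1 (0.984) and Clu (0.979), and Ctsa most like Tmbim6 (0.961), Gatsl3 (0.957) and Ctsd (0.957). Within genotypes other genes led, Tjp3 (0.978), Col8a1 (0.966) and Ezr (0.964) for Ctsd. For Ctsa they were P4ha3 (0.946), Slc7a10 (0.942) and Chchd10 (0.926). Lamp1 was most like Klk6 (0.941), Gpr37 (0.928) and Enpp4 (0.913), and the same 3 genes led within genotypes (0.937 to 0.956). Lamp2 was most like Cpq (0.961), a lysosomal peptidase, and Hexa most like Stab1 (0.922). The coefficients were lower for Ctsb (0.837 with 4931440P22Rik) and Ctsl (0.885 with Slc12a4). Within genotypes Ctsl was most like Tekt4 (0.927). These are the highest of 15843 coefficients over 15 shared libraries and no evidence of shared control.

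The same comparisons were read in 119 other lysosomal genes, of which 115 were tested. In ATXN1[82Q] against wild type 35 of the 115 were called higher and 13 lower, with a median log2 fold change of 0.028, against 0.0069 for all genes. Over all genes 16.6% were called higher and 14.9% lower, and no difference between the lists was tested. These counts fell to 12 higher and 3 lower among libraries with Ttr over 1000 CPM, and to 7 lower among those under 100 CPM, where fewer samples enter the fit. Of the 32 genes that the naming rule took from the lists, 11 kept their call for ATXN1[82Q] against wild type in every alternative run, among them Man2b1, Manba, Arsb, Grn, Creg1, Cst3, Cst7, Cd68, Slc11a1 and Gabarapl2. The other 21 lost it in at least 1 alternative. With the brainstem marker mean as a covariate 9 calls ended, with differences that shrank to unequal degrees. Tpp1 was then at 0.11 (0.12 without the covariate), Scpep1 at 0.14 (0.17), Gabarap at 0.096 (0.13), Npc2 at 0.20 (0.28) and Ctsc at 0.46 (0.66). Map1lc3a was at 0.091 (0.15), Sqstm1 at 0.063 (0.099), Gm2a at 0.094 (0.18) and Lamp5 at 0.59 (3.40).

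Of the other cathepsins and legumain, 4 of 7 tested were higher, among them Ctse (0.191 ± 0.033 to 0.586 ± 0.331 CPM), Ctsc, an activator of granule proteases of immune cells (5.6 to 8.85 CPM), and Ctsk (3.1 to 4.45 CPM). Ctsg was at 0 in every library. Of 14 glycosidases 7 were higher, among them Man2b1 (27.4 ± 1.65 to 39.4 ± 2.42 CPM, log2 fold change 0.53, adjusted p = 5.69e-07) and Manba (0.48), which trim mannose. The glycosidase and microglial lists share 1 gene. Of 6 sulfatases 3 were higher, among them Galns (0.33) and Arsb (0.30), and of 13 lipases and other hydrolases 3 were (Pla2g15 0.23, Scpep1 0.17, Tpp1 0.12). The share of all genes called higher was 16.6%. The call for Scpep1 ended without ATXN1[82Q] replicate 2 or 3 or wild-type replicate 2, 3 or 4 (adjusted p from 0.0507 to 0.0719).

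Among 5 activators and soluble lysosomal proteins Npc2, which moves cholesterol (0.28), Grn, the progranulin gene (0.27), and Gm2a, the activator that presents GM2 to beta-hexosaminidase (0.18), were higher. The call for Gm2a ended without ATXN1[82Q] replicate 5 or wild-type replicate 2 or 3 (adjusted p from 0.0552 to 0.0582). Creg1, a secreted glycoprotein found in lysosomes, fell, and it fell with both transgenes. It had 144, 151, 150, 142 and 150 CPM in wild type. It had 72.5, 73.4, 67.9, 70.6 and 75.3 CPM in ATXN1[82Q], and 85.8, 92.6, 124, 95.4 and 98.6 CPM with V591A;S602D. The 3 groups did not overlap. The log2 fold change of Creg1 against wild type was -1.03 in ATXN1[82Q] (adjusted p = 1.03e-08) and -0.57 with V591A;S602D (adjusted p = 0.000943), and the transgenes differed by -0.46 (adjusted p = 0.00015). Among libraries with Ttr over 1000 CPM the V591A;S602D call was lost (-0.50, adjusted p = 0.334).

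Cystatins are the natural inhibitors of cysteine cathepsins. Of 4 tested 2 were higher and 1 lower in ATXN1[82Q]. Cst3, cystatin C, a secreted inhibitor, went from 418 ± 47.3 to 644 ± 50.2 CPM (log2 fold change 0.62, adjusted p = 6.82e-06), and stood at 465 ± 34.2 with V591A;S602D. Cst7, which encodes cystatin F, an inhibitor within endosomes and lysosomes of immune cells, was rare: 2 to 5 counts per wild-type library, 29 to 50 in ATXN1[82Q] and 1 to 10 with V591A;S602D. Every ATXN1[82Q] library exceeded every other (log2 fold change 3.31, SE 0.387, adjusted p = 5.96e-06). Cstb, the cytosolic cystatin B, was lower by a small amount (log2 fold change -0.18, adjusted p = 0.0014).

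Of 22 other membrane proteins 9 were higher and none lower. Cd68, a macrosialin of macrophage lysosomes related to the LAMPs, went from 4.54 ± 0.647 to 9.47 ± 1.41 CPM (log2 fold change 1.06, adjusted p = 4.01e-06), and the metal transporter gene Slc11a1 rose by 1.27 (adjusted p = 0.000163). Lamp5, the LAMP family member of neurons, had the largest fitted difference (3.40, adjusted p = 0.00782), but its ATXN1[82Q] libraries stood at 1.94, 24, 1.15, 1.74 and 28.2 CPM. Both high values fell in the ATXN1[82Q] libraries with the most brainstem neuron transcripts (62.2 and 77.3 CPM summed, against 30.5 to 41 in the other 3). With the brainstem marker mean as a covariate the Lamp5 difference was 0.59 (adjusted p = 0.486). Both ATXN1[82Q] libraries high in Lamp5 also had high Ttr (3247 and 4867 CPM). ATXN1[82Q] replicate 4 had high Ttr too (3236 CPM), with Lamp5 at 1.74 CPM. With V591A;S602D the highest Lamp5 library, replicate 4 (6.92 CPM), had a brainstem sum of 35.3 CPM, within its group's 32.1 to 38.6. What raised Lamp5 in these libraries was not tested.

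Of 8 genes for the delivery of enzymes none was higher and 2 were lower, Sorl1, a sorting receptor of neurons (-0.49, adjusted p = 0.00244), and the retromer gene Vps35 (-0.13). Of 17 tested subunits of the V-ATPase, the proton pump, 5 were lower, among them Atp6v1g2 (-0.21) and Atp6v1d (-0.12), and Atp6v0e was higher (0.30). The MiT/TFE factor genes Tfeb, Tfe3 and Mitf gave no call (0 of 3 by edgeR, 0 at an unadjusted p under 0.05). Of 16 autophagy genes 3 were higher, all by at most 0.15 (Map1lc3a, Gabarap and Sqstm1), and 4 were lower, led by Uvrag and Gabarapl2 (both -0.19). In this comparison 16.6% of all genes were called higher and 14.9% lower, and no list was tested against these shares. The calls for Map1lc3a and Sqstm1 each ended when any 1 of 7 libraries was left out (adjusted p from 0.0535 to 0.115), with ATXN1[82Q] replicates 2, 4 and 5 and wild-type replicates 2, 3 and 4 common to both, and in addition wild-type replicate 5 for Map1lc3a and ATXN1[82Q] replicate 3 for Sqstm1. The Sqstm1 call also ended without the count filter (adjusted p = 0.0573), with Ttr as a covariate (adjusted p = 0.0676) and with only the 2 genotypes in the fit (adjusted p = 0.0565).

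With V591A;S602D against wild type, 1 of the 115 other lysosomal genes was higher, Manba, and 1 lower, Creg1. The shares of all genes called in this comparison were 0.208% higher and 1.2% lower. Manba rose from 12.9 ± 0.992 to 15.7 ± 1.22 CPM (log2 fold change 0.28, adjusted p = 0.0398). That call ended without any 1 of 7 libraries, V591A;S602D replicate 1, 4 or 5 or wild-type replicate 2, 3, 4 or 5 (adjusted p from 0.0539 to 0.116). Between the transgenes 29 of the 115 were higher in ATXN1[82Q] and 12 lower, with a median of 0.031. Among all genes 13.5% were called higher and 14.6% lower there, with a median of 0.0057, and no difference from the list was tested.

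**Figure D5:**
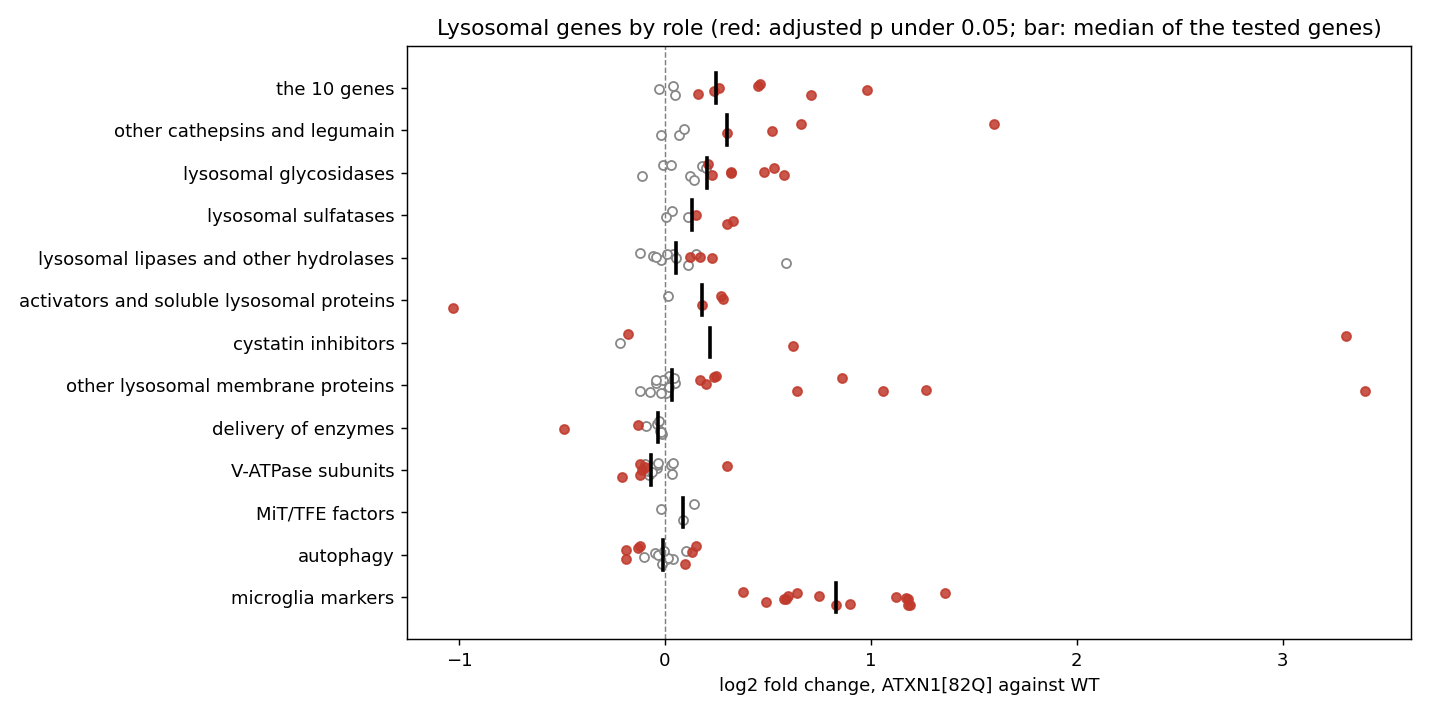
Log2 fold change in ATXN1[82Q] against wild type for the 10 genes, the 11 lists of other lysosomal genes and the microglial markers, 1 point per tested gene, red where the adjusted p is under 0.05, with a bar at each median. All 15 microglial markers lie right of 0. The medians of delivery (-0.034), V-ATPase (-0.07) and, by little, autophagy (-0.0087) lie left of it. The points near 3.3 are Cst7 and Lamp5.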

How the data were processed

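RNA sequencing libraries of total RNA from mouse cerebellum (NuGEN Ovation v2) were compared between 3 genotypes, 5 libraries each. The authors deposited whole-number read counts per gene for each library. Per the submitters' processing notes the tools were STAR 2.5.3a, HTSeq and DESeq2 with build mm10; the strand mode and the annotation used in counting were not given. Rows that name no gene were left out (no feature 16.8% to 18.2%, ambiguous 1.18% to 1.25%). All 30 pairs of libraries within a genotype differed by more than counting noise (chi-square per degree of freedom 5.7 to 40.6).

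Counts were fitted with edgeR 4.0.16 (R 4.3.3) in 1 quasi-likelihood model over all 15 libraries, with TMM scaling, filterByExpr with a minimum count of 10, and Benjamini-Hochberg adjustment over 15843 genes (threshold 0.05). Levels are CPM with TMM factors. The script was tested on simulated data. Alternatives were DESeq2 1.42.0, other size factors, no filter, only the compared genotypes, a replicate block, each library left out, Ttr or brainstem covariates, and libraries split by Ttr (those over 1000 CPM added after the data were seen).

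The 10 genes and all lists were chosen with earlier results of these data known. From each list the up to 3 called genes with the largest rise and 2 with the largest fall in ATXN1[82Q] were named, with any called for V591A;S602D, and the 3 genes most like each of the 10 by Pearson r. Single values of 2 genes it selects are left out. Of the genes most like Lamp2, Hexa, Ctsb and Ctsl only the first is given. Single marker genes, the genes overlapping the 10 and the MiT/TFE genes were named outside this rule. Gene positions are from GENCODE M21.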

Additional observations from a re-analysis of the deposited data

Results flagged for a closer look

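Of the 30 groups of 5 libraries (10 genes in 3 genotypes) 1 had a library far from the others. Ctsl stood at 121 CPM in ATXN1[82Q] replicate 5 and at 112 to 115 CPM in the other ATXN1[82Q] libraries. The gap to the nearest library was 0.714 of the whole range. Chance gives this for about 1 group in 20.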

How the results depend on the processing

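Counts for the 10 genes against wild type were 7 higher in ATXN1[82Q] (6 to 7 with each library left out) and 0 for V591A;S602D (0 to 1, Ctsz being higher without V591A;S602D replicate 3); 1, Ctsl, was lower there with Ttr as a covariate. Between transgenes 6 were higher (5 to 8). Of the other lysosomal genes, 35 higher and 13 lower calls in ATXN1[82Q] became 29 to 38 and 11 to 17 with each library left out, 12 and 3 among libraries with Ttr over 1000 CPM, and 7 lower under 100 CPM. For V591A;S602D the 1 higher call became 0 without the filter, with only 2 genotypes and in both Ttr splits (0 to 1 with each library left out). The 1 lower call became 2 with DESeq2 and 0 over 1000 CPM. Between transgenes 29 higher and 12 lower became 15 and 2 under 100 CPM, 18 and 6 over 1000 CPM, and 23 to 33 and 10 to 13 with each library left out. Signs turned only for values that did not pass. Ctsl in ATXN1[82Q] was 0.03 under 100 CPM and -0.06 to 0.007 with each library left out. Against wild type with V591A;S602D, Ctsa was -0.0038 and Lamp2 -0.0042 over 1000 CPM, and Ctsh -0.048 under 100 CPM. Lamp1 there was -0.00068 without the filter, -0.0095 with Ttr and -0.012 with brainstem markers as covariate, -0.0057 and -0.017 in the low and high Ttr libraries, and -0.023 to 0.014 with each library left out. The cause of these shifts was not tested, beyond the smaller number of samples in the split fits. Of 1215 values for 64 single results, 1103 kept direction and side of the threshold. Libraries that share a replicate number were not paired, since their deviations correlated above 0.1 in 4 of 15 pairs only. With a replicate block the 10 genes gave 7, 0 and 6 higher calls in the 3 comparisons, and the other lysosomal genes 32 higher and 12 lower, 1 and 1, and 26 and 11. Among the named genes in ATXN1[82Q] against wild type the block ended the calls of Scpep1 (0.17, adjusted p = 0.0589) and Sqstm1 (0.099, adjusted p = 0.0684). Genes near 1 CPM, such as Ctse and Cst7, rest on few counts.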
